A study of Mus musculus with 2 samples.

Results

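The SLC25 mitochondrial carrier family was followed through nuclei of mouse brown adipose tissue, the fat depot that burns fuel for heat. Its members were taken as every gene whose symbol starts with Slc25a, which held for 47 of the 31053 genes counted. Nuclei of C57BL/6 mice were compared between 1 library of mice that met acute cold transiently and were taken 4 days later (1cyc) and 1 library of mice housed at thermoneutrality (TN), warm enough that the body need not burn fuel to stay warm. Each library pooled the nuclei of 5 mice, sorted for DNA content with DAPI and loaded on the 10X Genomics droplet platform. With 1 library per condition there is no replicate check of any difference, condition and library cannot be told apart, and no test between conditions was possible.

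Carriers of this family sit mostly in the inner mitochondrial membrane, which is closed to most charged metabolites, and exchange or import one substrate each: nucleotides, phosphate, keto acids, amino acids, acylcarnitines or cofactors. They set what fuel and which cofactors reach the matrix. Uncoupling protein 1, the heat-producing protein of brown fat, belongs to the same protein family under another symbol and is therefore not a member here.

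Adipocyte nuclei were barcodes with at least 4 UMIs, or counted molecules, of Pparg, Acsl1, Pde3b and Ppara together and under 5% mitochondrially encoded UMIs. In 1cyc 912 nuclei passed, holding 989852 UMIs (median 966.5 per nucleus), and in TN 1081 nuclei passed, holding 1193078 UMIs (median 873). Of these, 23 nuclei in 1cyc and 81 in TN were white-like, with at least 3 UMIs of Nnat and Slc7a10. Another 172 barcodes in 1cyc and 259 in TN were under the mitochondrial limit but held under 4 UMIs of the rule. They are called other barcodes. Of these, 53 in 1cyc and 61 in TN held 3 UMIs of the rule, so adipocyte nuclei that missed it may be among them. The remaining 3237 of 4321 barcodes in 1cyc and 1211 of 2551 in TN were at or above the limit, and 6 barcode sequences were shared between the libraries. Levels are given in CPM, or UMIs per 1000000 UMIs of the class. The 12 adipocyte markers that the rule did not use summed to 10726 CPM in 1cyc and 10690 CPM in TN adipocyte nuclei. In other barcodes they summed to 3098 CPM in 1cyc and 2353 CPM in TN. Without the white-like nuclei, they summed to 10476 CPM in 1cyc and 9563 CPM in TN adipocyte nuclei. The 4 genes of the rule itself were not level, at 15383 CPM in 1cyc and 12565 CPM in TN adipocyte nuclei. In white-like nuclei a list of 8 brown adipocyte markers summed to 1099 CPM in 1cyc, where Ucp1 was at 0, and 1075 CPM in TN, against 5792 CPM in 1cyc and 4555 CPM in TN over all adipocyte nuclei. Intervals in parentheses are exact 95% intervals for counting error only and hold nothing of the spread between mice or libraries.

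The family as a whole gave 2727 UMIs in 1cyc and 2589 UMIs in TN adipocyte nuclei, or 2755 CPM in 1cyc and 2170 CPM in TN, a ratio of 1.27 (1.20 to 1.34). In these pooled nuclei, less RNA of a gene per nucleus and fewer nuclei that carry it cannot be told apart at the level of the sums. The family's UMIs were concentrated in few genes. Slc25a42 held 20.8% of them in 1cyc and 18.0% in TN, and the 6 members with most UMIs held 64.5% in 1cyc and 60.8% in TN. Over both libraries 12 members reached 100 UMIs, the minimum for a ratio to be read, and they held 81.4% of the family's UMIs. A further 6 members had 50 to 99 UMIs, 18 had 10 to 49, 10 had 1 to 9, and Slc25a41 had none, for which a floor of 3 counts allows up to 3.03 CPM in 1cyc and 2.51 CPM in TN. The 35 members below the minimum summed to 477 CPM in 1cyc and 432 CPM in TN, a ratio of 1.10 (0.97 to 1.25).

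Of the 12 measured members, 2 were at least 1.5-fold higher in 1cyc, among them Slc25a20, against 8.56% of the 3643 genes measured. None was at least 1.5-fold lower, against 5% of the measured genes. The ratio was above 1 for 9 of the 12, and their median log2 ratio was 0.36, beside 0.09 over all measured genes. A member had to reach the minimum over both libraries together, so these counts describe the better captured members and not the family. Without Slc25a20 the family's sum was 2521 CPM in 1cyc and 2043 CPM in TN, a ratio of 1.23 (1.17 to 1.30).

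**Figure D1:**
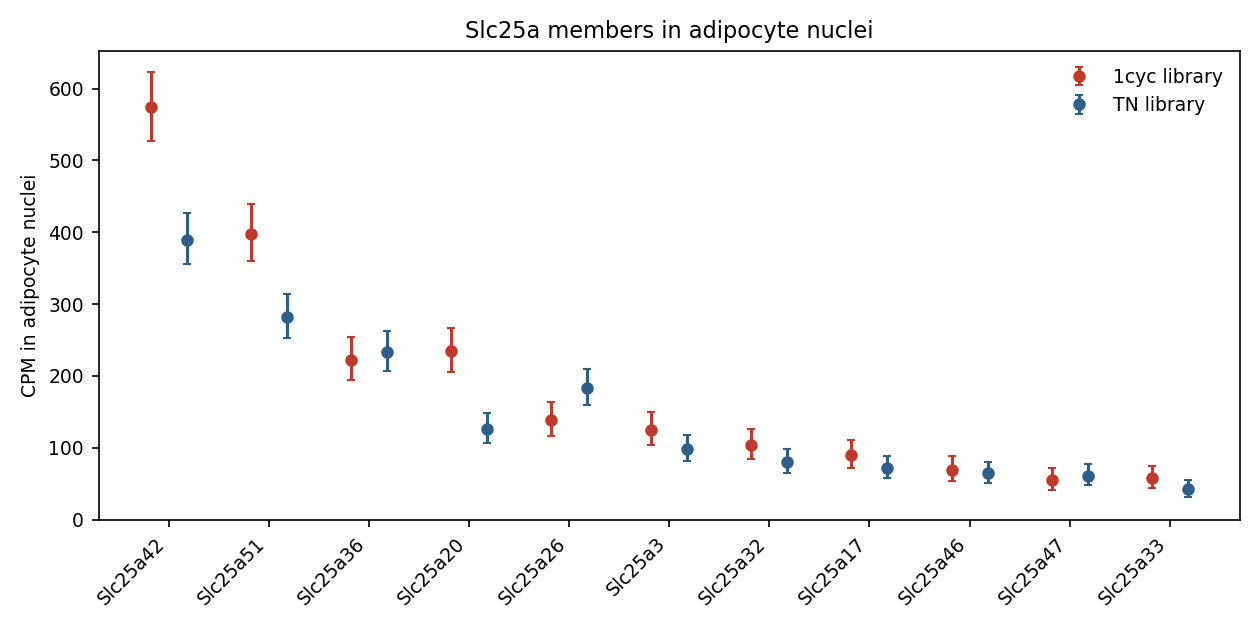
CPM of 11 of the 12 measured members in adipocyte nuclei of the 1cyc library (red, left of each pair) and the TN library (blue, right), in order of UMIs over both; bars are exact Poisson 95% intervals for counting error. The intervals of the libraries do not overlap for Slc25a42 (574 CPM in 1cyc and 390 CPM in TN), Slc25a51 and Slc25a20, and overlap narrowly for Slc25a26, which had 138 CPM in 1cyc and 184 CPM in TN.

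Cofactor and nucleotide carriers made up most of the family's signal: 9 members, 8 of them measured, summed to 1830 CPM in 1cyc and 1416 CPM in TN, a ratio of 1.29 (1.21 to 1.38). Slc25a42, which carries coenzyme A into the matrix in exchange for adenine nucleotides, had 568 UMIs or 574 CPM (528 to 623) in 1cyc and 465 UMIs or 390 CPM (355 to 427) in TN. Its ratio was 1.47 (1.30 to 1.67), just under the 1.5-fold limit. Slc25a51, the carrier that brings NAD into mammalian mitochondria, had 398 CPM (360 to 439) in 1cyc and 282 CPM (252 to 313) in TN, a ratio of 1.41 (1.22 to 1.64).

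The remaining carriers of this group lay on both sides of 1. Slc25a26, which imports the methyl donor S-adenosylmethionine, was lower in 1cyc, with 138 CPM (116 to 164) in 1cyc and 184 CPM (160 to 210) in TN, a ratio of 0.75 (0.60 to 0.94). It lies opposite to Lrig1 on the genome, and whether the counting used strand is not given in the sources used here. Lrig1 itself had 156 CPM in 1cyc and 140 CPM in TN, a ratio of 1.11. Whether molecules of Lrig1 entered the count of Slc25a26 was not tested. Slc25a36, a pyrimidine nucleotide carrier, had 222 CPM (194 to 254) in 1cyc and 233 CPM (206 to 262) in TN, and its interval of the ratio held 1, at 0.95 (0.80 to 1.14). Its relative Slc25a33 had 57.6 CPM in 1cyc and 41.9 CPM in TN. The folate carrier Slc25a32 had 104 CPM in 1cyc and 80.5 CPM in TN, and the peroxisomal cofactor carrier Slc25a17 had 89.9 CPM in 1cyc and 72.1 CPM in TN. For these 3 members the ratios lay between 1.25 and 1.37 and each interval held 1, so no difference was detectable at this depth. Slc25a16, listed with them, had 71 UMIs over both libraries and a ratio of 1.24 (0.76 to 2.03).

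Carriers of acylcarnitines and related members summed to 346 CPM in 1cyc and 205 CPM in TN, a ratio of 1.68 (1.42 to 1.99). Slc25a20, the carnitine-acylcarnitine carrier that brings fatty acids into the matrix for oxidation, had 232 UMIs or 234 CPM (205 to 267) in 1cyc and 151 UMIs or 127 CPM (107 to 148) in TN, a ratio of 1.85 (1.502 to 2.29). Slc25a47, known mainly from liver, had 55.6 CPM in 1cyc and 61.2 CPM in TN, a ratio of 0.91 (0.63 to 1.31). Slc25a48, reported as a mitochondrial choline carrier, stayed below the minimum, and is named because of its values. It had 51 UMIs in 1cyc and 20 UMIs in TN, a ratio of 3.07 (1.80 to 5.44), the farthest from 1 of the 18 members with at least 50 UMIs. Slc25a29 and Slc25a45 had 2 and 3 UMIs over both libraries.

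The promoters of Slc25a42 and Slc25a20, the best captured cofactor carrier and the carnitine carrier that was higher in 1cyc, are given beside that of Slc25a36, whose level did not differ beyond counting error. Each runs from 250 bases before to 50 after a gene start in the RefSeq table for GRCm38.p6, the mm10 assembly, read 5′ to 3′ on the gene's strand. Slc25a42 is at chr8:70212232-70212531 on the minus strand, Slc25a20 at chr9:108661886-108662185 on the plus strand and Slc25a36 at chr9:97110992-97111291 on the minus strand. Capitals mark matches to CACGTG, the E-box, and TGACGTCA, the cAMP response element.
Slc25a42: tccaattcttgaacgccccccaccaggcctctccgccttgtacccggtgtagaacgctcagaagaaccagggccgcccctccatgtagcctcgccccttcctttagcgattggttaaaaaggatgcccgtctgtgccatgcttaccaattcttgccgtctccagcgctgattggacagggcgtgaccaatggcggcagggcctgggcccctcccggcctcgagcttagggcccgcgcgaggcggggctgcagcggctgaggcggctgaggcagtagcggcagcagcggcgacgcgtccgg
Slc25a20: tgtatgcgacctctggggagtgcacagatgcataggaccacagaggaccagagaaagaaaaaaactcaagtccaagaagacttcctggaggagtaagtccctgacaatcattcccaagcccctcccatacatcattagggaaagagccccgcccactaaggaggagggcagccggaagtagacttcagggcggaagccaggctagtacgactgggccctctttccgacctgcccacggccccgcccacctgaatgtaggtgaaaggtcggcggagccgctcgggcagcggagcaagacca
Slc25a36: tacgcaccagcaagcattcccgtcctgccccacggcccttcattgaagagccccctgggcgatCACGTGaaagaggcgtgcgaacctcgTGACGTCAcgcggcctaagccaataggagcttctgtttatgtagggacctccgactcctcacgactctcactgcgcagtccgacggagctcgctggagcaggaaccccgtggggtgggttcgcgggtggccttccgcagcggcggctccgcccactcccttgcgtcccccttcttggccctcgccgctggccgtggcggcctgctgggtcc

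On either strand, none of 4 short motifs searched was found in the Slc25a42 and Slc25a20 windows. The Slc25a36 window held both of the motifs in capitals. CACGTG was also found in the promoter of Slc25a33, whose ratio was 1.37. Whether a motif goes with a ratio was not tested. TGACGTCA stood in 2 of 46 member promoters, those of Slc25a25 and Slc25a36, beside 1.79% of all 32851 promoters of the table. CACGTG stood in 8 of 46, in 7 genes, since overlapping windows of Slc25a14 hold the same site, beside 7.15% of all. TCAAGGTCA, the motif of the oestrogen-related receptors, stood in none of the 46, beside 0.423% of all, and AGGTCA, which is contained in it, stood in 4 of 46, beside 16.3% of all. The 46 promoters belonged to 36 of the 47 members, and Slc25a51 had none in the table. The median share of G and C bases was 59.3% in member promoters and 52.7% in all. The motif shares were not adjusted for it.

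**Figure D2:**
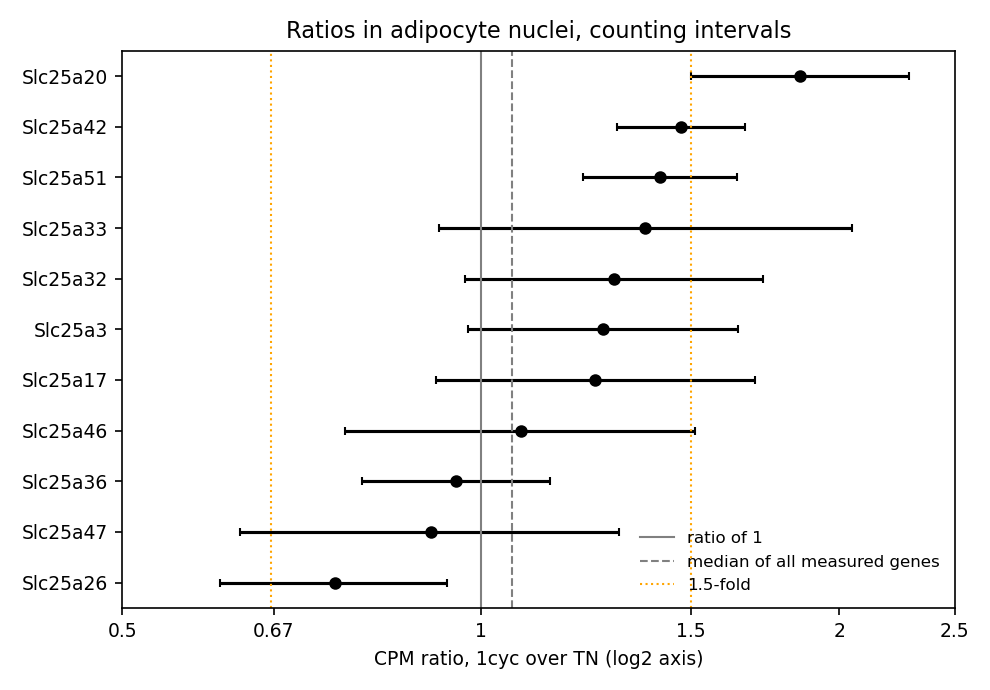
Ratio of CPM in 1cyc over TN adipocyte nuclei for 11 of the 12 measured members (log2 axis), with exact conditional binomial 95% intervals for counting error; the solid line is a ratio of 1, the dashed line the median of all measured genes and the dotted lines a 1.5-fold difference. Slc25a20 lies above the dotted line with an interval of 1.502 to 2.29, and Slc25a26 is the one plotted member whose whole interval lies below 1.

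ADP/ATP and phosphate exchange, the supply line of ATP synthase, gave 173 CPM in 1cyc and 144 CPM in TN over 4 members, a ratio of 1.20 (0.96 to 1.49). Slc25a3, the phosphate carrier, had 125 CPM (104 to 149) in 1cyc and 98.9 CPM (81.9 to 118) in TN. The adenine nucleotide translocases Slc25a4 and Slc25a5 had 38 and 7 UMIs in 1cyc and 42 and 12 UMIs in TN, below the minimum. Slc25a46, an outer membrane member tied to mitochondrial shape, had 69.7 CPM in 1cyc and 64.5 CPM in TN.

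Shares and orders by UMIs are not corrected for gene length, so levels between genes were also set side by side per length. This assumes that counts grow with gene span, which was not tested, and whether intronic reads were counted is not known. Per 10 kb of gene span, Slc25a51 stood highest of the 12 measured members with 310 CPM in 1cyc and 219 CPM in TN. Slc25a42 followed with 205 CPM per 10 kb in 1cyc and 139 in TN, next to Slc25a3 with 167 in 1cyc and 132 in TN. Slc25a20 had 104 CPM per 10 kb in 1cyc and 56.1 in TN. Slc25a26, which spans 104 kb, had 13.3 CPM per 10 kb in 1cyc and 17.6 in TN, lower per length than its count of UMIs places it. The translocase Slc25a4, below the minimum, had 85.5 CPM per 10 kb in 1cyc and 78.4 in TN.

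The other transport roles were thinly captured. Aspartate/glutamate and glutamate carriers summed to 62.6 CPM in 1cyc and 48.6 CPM in TN, a ratio of 1.29 (0.89 to 1.88). Branched-chain amino acid, ornithine and glycine carriers summed to 55.6 CPM in 1cyc and 41.1 CPM in TN, a ratio of 1.35 (0.90 to 2.03); among them Slc25a44, the branched-chain amino acid carrier of brown fat mitochondria, had 23 UMIs in 1cyc and 24 in TN. Iron and glutathione carriers gave a ratio of 1.03 (0.78 to 1.37), and the 6 outer membrane and unassigned members 1.01 (0.77 to 1.32). Ratios below 1 were seen for the ATP-Mg/phosphate carriers, at 0.76 (0.51 to 1.10), the tricarboxylate, dicarboxylate and oxoacid carriers, at 0.73 (0.35 to 1.49), and the uncoupling protein relatives Slc25a14, Slc25a27 and Slc25a30, at 0.71 (0.41 to 1.20). All of these intervals held 1. Slc25a1, the citrate carrier that supplies cytosolic acetyl-CoA for fatty acid synthesis, had no UMI in 1cyc and 6 UMIs in TN.

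Enzymes that work with these carriers were counted on the same 1.5-fold limit. The shares over all measured genes, 8.56% higher and 5% lower, are the background for each count. Of the carnitine shuttle genes, 2 of 5 measured were higher in 1cyc and none lower: Crat, the carnitine acetyltransferase, at 2.01 and Slc22a5, the carnitine importer of the plasma membrane, at 1.55. The citrate cycle and malate-aspartate shuttle list also held Acly and Me1, cytosolic enzymes that belong to neither pathway. Of its 12 measured genes, 2 were higher and none lower. They were Acly, which splits cytosolic citrate, at 2.73 and, of the citrate cycle itself, Idh3a at 1.53. Of 17 branched-chain amino acid catabolism genes, 1 was higher and none lower; it was Dld at 1.94, the dihydrolipoamide dehydrogenase. Of 4 measured ATP synthase genes, 2 were higher, Atp5g3 at 1.85 and Atp5a1 at 1.59. Below the minimum, 2 subunits had intervals under 1, Atp5h at 0.47 (0.25 to 0.86) and Atp5j at 0.37 (0.18 to 0.72). In other lists, genes below the minimum had intervals above 1. Acsl5 stood at 2.84 (1.57 to 5.34) and Fh1 at 2.46 (1.48 to 4.19). Mdh2 stood at 1.71 (1.11 to 2.67) and Letm1 at 2.03 (1.12 to 3.79). Of 3 measured iron-sulphur and haem synthesis genes none was higher. Among 8 other inner membrane carriers, the pyruvate carrier subunit Mpc1 at 1.58 and Sfxn5 at 1.56 were higher. The median log2 ratio was 0.36 for the carnitine shuttle list, 0.37 for the citrate cycle list, 0.17 for branched-chain amino acid catabolism, 0.48 for ATP synthase, -0.07 for iron-sulphur and haem synthesis and 0.25 for the other inner membrane carriers, beside 0.09 over all measured genes. The median of the carnitine shuttle list is the ratio of Acsl1, at 1.29, and Acsl1 is a gene of the adipocyte rule. That median is therefore not independent of how the nuclei were chosen. The family relatives outside the symbol rule were Ucp1 at 2.15 (1.75 to 2.64), Ucp3 at 2.47 (1.69 to 3.66) and Mtch2 at 1.41 (1.11 to 1.80).

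Classes of nuclei differed in which carriers they held. White-like nuclei in TN, with 135827 UMIs, were at least 1.5-fold lower than the other adipocyte nuclei of that library in 5 of 12 measured members, among them Slc25a20, Slc25a32, Slc25a42 and Slc25a51, against 26.7% of the measured genes. Slc25a42 had 103 CPM in white-like nuclei and 427 CPM in the other adipocyte nuclei of TN, a ratio of 0.24 (0.13 to 0.41). Slc25a20 had 29.4 CPM in white-like nuclei and 139 CPM in the others, a ratio of 0.21 (0.06 to 0.55), and Slc25a51 had 88.3 CPM in white-like nuclei and 306 CPM in the others, a ratio of 0.29 (0.15 to 0.51). Slc25a26 stood at the same level in both, 184 CPM in white-like nuclei and 183 CPM in the others, and Slc25a36 had 221 CPM in white-like nuclei and 235 CPM in the others. Slc25a32 stood at 0.43 (0.14 to 1.04), an interval that held 1. The part of these class differences in the ratios between the libraries was not tested. The minimum for a measured member was set on adipocyte sums, where nuclei that are not white-like held 1057251 of 1193078 TN UMIs. In 1cyc, on 2 UMIs in white-like nuclei, Slc25a36 had 53.6 CPM there and 229 CPM in the other adipocyte nuclei, a ratio of 0.23 (0.03 to 0.86).

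The white-like nuclei of 1cyc were few, with 37308 UMIs and 42 family UMIs, or 1126 CPM in 1cyc and 1553 CPM in TN over the family, a ratio of 0.72 (0.51 to 1.01). They made up 23 of the 912 adipocyte nuclei in 1cyc and 81 of the 1081 in TN, and the classes therefore weigh differently in the adipocyte sums. Leaving white-like nuclei out, the family had 2819 CPM in 1cyc and 2249 CPM in TN, a ratio of 1.25 (1.19 to 1.32). Slc25a20 then stood at 1.74 (1.41 to 2.16), Slc25a42 at 1.40 (1.23 to 1.58) and Slc25a51 at 1.33 (1.14 to 1.54).

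**Figure D3:**
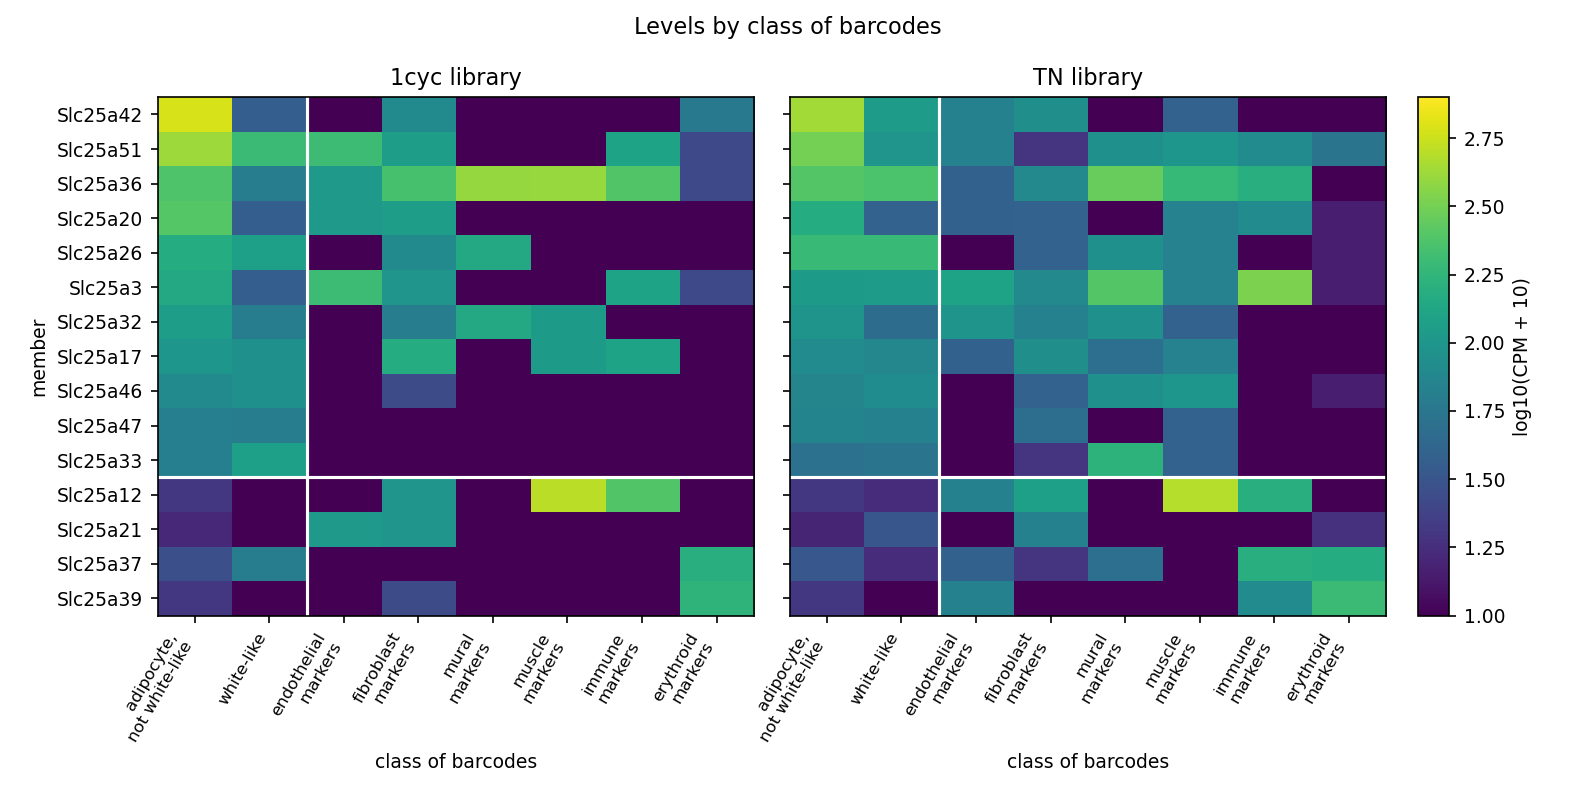
Level of 11 of the 12 measured members (above the white line) and of 4 members counted mostly outside adipocyte nuclei (below it), as log10(CPM + 10), in classes of barcodes (columns) of the 1cyc library (left) and the TN library (right). Slc25a42 and Slc25a51 are brightest in adipocyte nuclei that are not white-like, Slc25a12 in barcodes with muscle markers, and Slc25a39 in barcodes with erythroid markers. Slc25a37 is brightest in barcodes with erythroid markers in 1cyc, and in TN is about as bright in those with immune markers, where 4 UMIs were counted.

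Adipocyte nuclei were also set against the other barcodes, here over UMIs that are neither haemoglobin nor mitochondrially encoded, because haemoglobin took 58860 of 187219 UMIs in 1cyc and 213217 of 497754 in TN other barcodes. In 1cyc, 10 of the 12 measured members were at least 1.5-fold higher in adipocyte nuclei, against 36.6% of measured genes, and in TN 10 of 12 were, against 35.5%. Members and background genes alike had to reach the minimum in the adipocyte sums, the class in which they are then called higher. Members counted mostly in other barcodes fell out this way, so these counts show no bias of the family toward adipocyte nuclei. Slc25a42 had the widest gap in TN, with 415 CPM in adipocyte nuclei and 58.2 CPM in other barcodes, a ratio of 7.14 (4.35 to 12.6). In 1cyc it had 587 CPM in adipocyte nuclei and 168 CPM in other barcodes, a ratio of 3.49 (2.26 to 5.68). The 12 adipocyte markers outside the rule were also counted in other barcodes, at the levels given above. The part of free adipocyte RNA, or of adipocyte nuclei that missed the rule, in these values was not tested. Slc25a17 was the one member under the limit in both libraries, at 1.04 in 1cyc and 1.32 in TN, and Slc25a36 was at 0.86 in 1cyc and 1.95 in TN.

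Of the members below the minimum, 4 had at least 50% of their UMIs in other barcodes and at least 20 UMIs in all under the mitochondrial limit. Slc25a24, with 7 UMIs there and 6 in adipocyte nuclei, and Slc25a41, with 1 UMI there and 0 in adipocyte nuclei, had fewer. Slc25a39, a mitochondrial glutathione carrier, had 73.4% there, and Slc25a37, the iron importer mitoferrin of developing red cells, had 52.1%. Among barcodes with erythroid markers Slc25a39 had 10 UMIs in 1cyc and 43 in TN, and Slc25a37 had 9 in 1cyc and 32 in TN. Slc25a12, the aspartate/glutamate carrier of muscle and nerve, had 69.0% of its UMIs outside adipocyte nuclei. In the 7 barcodes with skeletal muscle markers in 1cyc it had 5 UMIs or 496 CPM, and in the 28 in TN it had 16 UMIs or 477 CPM. Slc25a21, the oxodicarboxylate carrier, had 51.6% in other barcodes, with 5 UMIs in 1cyc and 6 in TN among barcodes with fibroblast or progenitor markers. These counts are too small for a comparison between the libraries.

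The share of adipocyte nuclei with a family UMI was also higher in 1cyc among those that were not white-like, with intervals that overlap narrowly. After each nucleus was thinned to 500 UMIs, which left out 124 of 889 nuclei in 1cyc and none in TN, 73.7% (70.5 to 76.8) of the adipocyte nuclei that were not white-like held a family UMI in 1cyc and 68.1% (65.1 to 71.0) in TN; before thinning the shares were 87.7% in 1cyc and 85.5% in TN. In white-like nuclei 45.5% (24.4 to 67.8) held one in 1cyc and 48.1% (36.9 to 59.5) in TN, and in other barcodes 42.6% (33.1 to 52.5) in 1cyc and 40.9% (34.9 to 47.2) in TN, with no difference detectable in either class. For Slc25a42 the thinned share was 24.97% (21.9 to 28.2) in 1cyc and 20.1% (17.7 to 22.7) in TN, beside 2.78% in 1cyc and 3.09% in TN other barcodes. Slc25a20 was seen in 11.1% (8.97 to 13.6) of nuclei in 1cyc and 7.20% (5.68 to 8.98) in TN. Slc25a26 lay lower in 1cyc, with intervals that overlap, in 6.14% (4.55 to 8.09) of nuclei in 1cyc and 8.80% (7.12 to 10.7) in TN. For Slc25a36 no difference was detectable, with 9.67% (7.67 to 11.99) in 1cyc and 10.8% (8.94 to 12.9) in TN. Before thinning its shares were 19.91% in 1cyc and 19.9% in TN. The median depth of these nuclei was 953 UMIs in 1cyc and 856.5 in TN, and that of other barcodes 700 UMIs in 1cyc and 1153 in TN.

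Within each library, adipocyte nuclei that were not white-like and had at least 1000 UMIs were thinned to 1000. They were then split by whether they held a Ucp1 UMI. The median depth of that class was 953 UMIs in 1cyc and 856.5 in TN, so most of its nuclei were left out. In 1cyc the family had 3241 CPM in 79 nuclei with Ucp1 and 2777 CPM in 336 without, a ratio of 1.17 (1.01 to 1.34). In TN it had 2718 CPM in 39 nuclei with Ucp1 and 2191 CPM in 329 without, a ratio of 1.24 (1.00 to 1.52). In 1cyc Slc25a51 stood at 658 CPM with Ucp1 and 399 CPM without, a ratio of 1.65 (1.17 to 2.29), and Slc25a20 at 1.65 (1.03 to 2.59). In TN the same split gave Slc25a51 a ratio of 1.05 (0.54 to 1.88) and Slc25a20 one of 1.65 (0.71 to 3.41). A split by a UMI of the lipogenic enzymes Acly, Fasn, Scd1, Elovl6 or Acss2 gave the family 2850 CPM in 294 nuclei with one and 2828 CPM in 122 without in 1cyc, a ratio of 1.01 (0.89 to 1.15), and a ratio of 1.17 (1.02 to 1.35) in TN. Nuclei of 1 library are not replicates, so these intervals describe the pooled nuclei only.

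The libraries differed in mitochondrially encoded UMIs, and the carriers were therefore also read in bins of that share over all barcodes, with CPM over UMIs neither mitochondrially encoded nor of haemoglobin genes. In barcodes of 2 to 5%, Slc25a42 had 575 CPM in 1cyc and 391 CPM in TN, and of 5 to 20% it had 476 CPM in 1cyc and 288 CPM in TN, ratios of 1.47 and 1.65. Slc25a20 stood at ratios between 1.56 and 2.20 in the 4 bins below 20%. In the bin under 1%, where haemoglobin took 15.8% of the UMIs in 1cyc and 62.7% in TN, the family had 2698 CPM in 1cyc and 2762 CPM in TN. Above 20% TN had 93 family UMIs in 84 barcodes, against 1809 family UMIs in 2275 barcodes of 1cyc, and the TN level there rests on few counts.

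**Figure D4:**
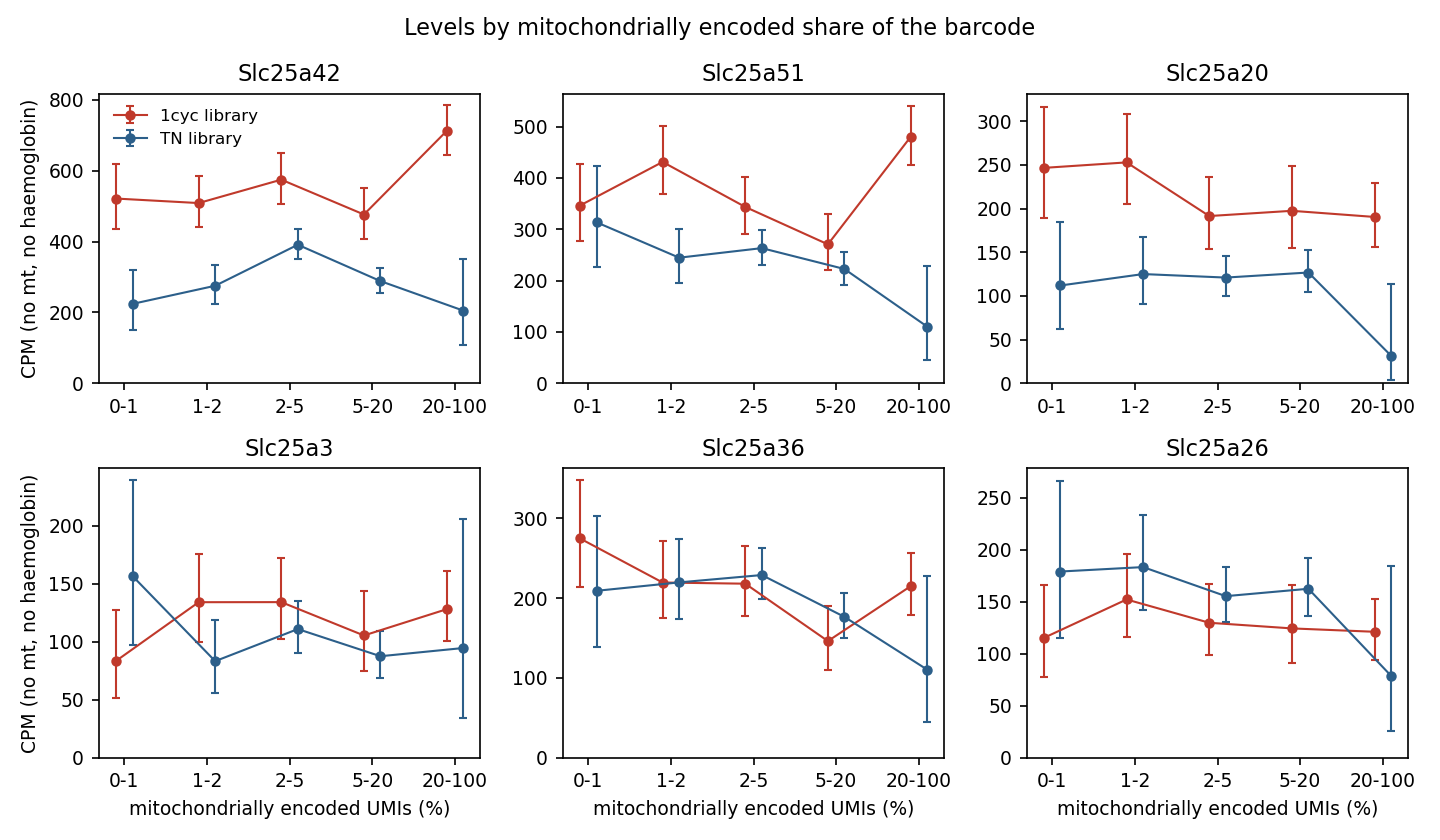
CPM of 6 members, over UMIs neither mitochondrially encoded nor of haemoglobin genes, in bins of the mitochondrially encoded share of each barcode, for 1cyc (red) and TN (blue) with exact Poisson 95% intervals; all barcodes are included. Slc25a42 and Slc25a20 are higher in 1cyc in each bin, while Slc25a36 and Slc25a26 lie close together or lower in 1cyc between 1% and 20%.

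At and above the 5% limit barcodes of all cell types are mixed, and none entered the adipocyte sums. Over UMIs neither mitochondrially encoded nor of haemoglobin genes, the family had 2812 CPM in 1cyc and 1836 CPM in TN there, a ratio of 1.53 (1.44 to 1.63). Over all UMIs, of which 328198 of 1292829 in 1cyc and 117766 of 1054976 in TN were mitochondrially encoded, it had 2060 CPM in 1cyc and 1620 CPM in TN, a ratio of 1.27 (1.20 to 1.35). Without those UMIs Slc25a42 stood at 2.19 (1.89 to 2.55), Slc25a51 at 1.85 (1.56 to 2.21), Slc25a20 at 1.61 (1.26 to 2.05) and Slc25a26 at 0.78 (0.61 to 1.003). Over all UMIs Slc25a42 stood at 1.82 (1.57 to 2.11), Slc25a51 at 1.54 (1.29 to 1.84), Slc25a20 at 1.33 (1.05 to 1.70) and Slc25a26 at 0.65 (0.50 to 0.83). With either total each of these 4 members lay on the same side of 1 as in the adipocyte nuclei under the limit. Not all members did. Slc25a36 and Slc25a47, both below 1 under the limit, stood at 1.09 (0.88 to 1.36) and 1.23 (0.83 to 1.83) without those UMIs. Over all UMIs Slc25a36 stood at 0.91 (0.73 to 1.13) and Slc25a47 at 1.02 (0.69 to 1.52). Each of these intervals held 1.

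Markers of other cell types were not level between the adipocyte sums. The erythroid list, 5 of 6 genes detected with Slc4a1 at 0 in both, summed to 2734 CPM in 1cyc and 36591 CPM in TN, nearly all of it haemoglobin in 7 nuclei in 1cyc and 23 in TN with at least 4 such UMIs. Endothelial markers, 8 of 8 detected, summed to 212 CPM in 1cyc and 484 CPM in TN, fibroblast markers, 10 of 10, to 195 CPM in 1cyc and 401 CPM in TN, and muscle markers to 422 CPM in 1cyc and 108 CPM in TN, where Myh2 was at 0. Mural markers, 8 of 8, summed to 65.7 CPM in 1cyc and 142 CPM in TN, and immune markers to 28.3 CPM in 1cyc, where Cd163 and Lyz2 were at 0, and 257 CPM in TN. Without the nuclei that held at least 4 UMIs of any such list, the family's ratio was 1.20 (1.13 to 1.27), with Slc25a20 at 1.71, Slc25a42 at 1.34, Slc25a51 at 1.28 and Slc25a26 at 0.69. Slc25a20 stayed above 1.5 in each of the 13 other settings tried, between 1.52 and 2.14.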

How the data were processed

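Nuclei were profiled in 1 library per condition. The authors deposited unnormalised UMI counts, made with Cell Ranger 3 on mm10 per the submitters' processing notes (3.1.0 per the file headers). Which annotation was used, and whether intronic reads or strand entered the counting, is not stated in the sources. Barcodes were deposited from 262 UMIs in 1cyc and from 500 in TN.

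UMIs were summed per class and library and scaled to CPM. Genes with at least 100 UMIs over both adipocyte sums were measured, and called at 1.5-fold. Intervals were exact Poisson for levels, exact conditional binomial for ratios and Clopper-Pearson for shares, at 95%. Only the intervals of ratios were tested on simulated data, with counts drawn without spread between nuclei, mice or libraries. No p-value was computed. In other barcodes a cell type needed at least 4 UMIs of its marker list and more than of any other list. Shares of UMIs in other barcodes are over barcodes under 5% mitochondrially encoded UMIs. Thinned values are medians of 20 draws. Scrublet (scanpy 1.11.5) called 6 adipocyte nuclei per library; they were kept and removed in an alternative. TMM came from edgeR 4.0.16 and size factors from DESeq2 1.42.0, for scaling only. Gene spans and overlaps are from GENCODE, promoters from RefSeq.

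Members with at least 100 UMIs are described. Of these, members at least 1.5-fold apart or with at least 500 UMIs get ratio and interval by rule. Members under 100 UMIs are named where at least 50% of at least 20 UMIs lay in other barcodes; further ratios and names were added after the values were seen. The members and gene lists were chosen with earlier results of these data known. The values of 1 measured member are not reported here; it is counted in all sums and counts.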

Additional observations from a re-analysis of the deposited data

Results flagged for a closer look

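Slc25a36, a pyrimidine nucleotide carrier, moved in opposite directions in classes of nuclei. In white-like nuclei it had 2 UMIs or 53.6 CPM in 1cyc and 30 UMIs or 221 CPM in TN, a ratio of 0.243 (0.028 to 0.957). In other barcodes, over UMIs neither haemoglobin nor mitochondrially encoded, it had 33 UMIs or 264 CPM in 1cyc and 35 UMIs or 127 CPM in TN, a ratio of 2.08 (1.25 to 3.44). In adipocyte nuclei that were not white-like its ratio was 0.98 (0.81 to 1.18). The intervals of the white-like nuclei and the other barcodes lie on opposite sides of 1, and the difference between the classes was not tested. The white-like value rests on 23 nuclei in 1cyc, and the mix of cell types among other barcodes differed, with 48 barcodes carrying fibroblast or progenitor markers in 1cyc and 73 in TN, and 15 carrying erythroid markers in 1cyc and 42 in TN. Within barcodes with fibroblast or progenitor markers Slc25a36 had 12 UMIs in 1cyc and 7 in TN. Other barcodes may also hold adipocyte nuclei that missed the rule, and their part in this ratio was not tested.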

How the results depend on the processing

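No paired analysis was possible because each condition is 1 library of pooled mice, and for the same reason no replicate could be left out. In 13 other settings Slc25a20, Slc25a42, Slc25a51, Slc25a3, Slc25a17, Slc25a32 and Slc25a33 stayed above 1 and Slc25a26 stayed below it. The interval of Slc25a26 did not stay below 1 throughout. It held 1 under a 2% mitochondrial limit, at 0.73 (0.54 to 1.002). It also held 1 with an adipocyte rule of 2 UMIs, at 0.87 (0.70 to 1.07). In barcodes of at least 1000 UMIs it held 1 too, at 0.84 (0.64 to 1.10). Slc25a36 went above 1 in 3 settings, up to 1.17 in barcodes of at least 1000 UMIs, Slc25a47 in 1, at 1.09 under a 2% mitochondrial limit, and Slc25a46 fell below 1 in 1, at 0.967 with DESeq2 size factors. TMM scaling moved the median log2 ratio of all measured genes by -0.10 and DESeq2 size factors by -0.16. Relative to the median gene, Slc25a20 stood at 1.74, Slc25a42 at 1.39, Slc25a51 at 1.33 and Slc25a26 at 0.709 in the reported setting. The family's summed ratio was 1.18 with TMM, 1.14 with DESeq2 size factors, 1.42 under a 2% mitochondrial limit, 1.20 with no limit, 1.37 with an adipocyte rule of 2 UMIs, 1.40 in barcodes of at least 1000 UMIs and 1.20 without barcodes of other markers. Members called higher were 4 of 8 under the 2% limit, beside 14.2% of all genes measured, 4 of 13 with the rule of 2 UMIs, beside 12.3%, and 6 of 9 in barcodes of at least 1000 UMIs, beside 12.1%. They were 4 of 18 with no limit and mitochondrially encoded UMIs left out of the total, beside 8.15%, and 7 of 41 when 1 UMI in each sum was enough, below the 23.0% of all genes. Members called lower were 1 of 18 with no limit, Slc25a26, beside 7.85%, and 6 of 41 when 1 UMI in each sum was enough, beside 17.2%. The setting with no limit and mitochondrially encoded UMIs left out of the total, and the removal of barcodes of other markers, were chosen after seeing the data, as were the totals without haemoglobin, the thinning to 500 UMIs and the splits by Ucp1 and lipogenic UMIs. The cause of these moves was not tested.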
